A study of Mus musculus with 12 samples.

Results

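The 9 genes described here encode reductases that turn quinones, aldehydes and ketones into less reactive hydroquinones and alcohols. They are the quinone reductase genes Nqo1 and Nqo2, the carbonyl reductase genes Cbr1 and Cbr3, and the aldo-keto reductase genes Akr1a1, Akr1b3, Akr1b8, Akr1c13 and Akr1c14. They were found by symbol among the 55385 genes of both count tables, and all 9 were present. RNA was sequenced from satellite cells, which are the muscle's stem cells, isolated from hindlimb muscle of C57BL/6J animals and frozen at once. There were 3 KO-labelled and 3 Het animals of each sex, 12 libraries in all, and each library carries its own animal number. KO means knockout of Keap1, and the word the labels give for the control genotype (Hetz in the titles) was read as heterozygous, so on that reading no animal with both alleles intact is part of the comparison. The labels name no age, no allele and no promoter or Cre line for the deletion. The study asked whether KEAP1 and NRF2 act differently in satellite cells of females and males.

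KEAP1 is the adaptor that marks the transcription factor NRF2, the product of Nfe2l2, for degradation, and NRF2 switches on genes of antioxidant defence and detoxification. NQO1 is a flavoprotein that reduces quinones directly to hydroquinones with NADH or NADPH, and its gene is a widely used readout of NRF2 activity. Carbonyl reductases belong to the short-chain dehydrogenases and aldo-keto reductases to a separate protein family, and both draw on NADPH to reduce aldehydes, ketones, prostaglandins and steroids.

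Library totals ran from 13042039 to 19273245 counts, with 19833 to 22602 genes detected per library. Levels are given as CPM, the usual depth-normalised count, scaled with TMM factors over the 12 libraries, as mean ± SD over 3 animals. Keap1 itself stood at 11.9 ± 0.923 CPM in KO-labelled and 8.18 ± 1.21 CPM in Het females, and at 7.30 ± 0.797 CPM in KO-labelled and 7.80 ± 2.36 CPM in Het males. It passed in neither sex (edgeR adjusted p = 0.186 in females and 0.936 in males), and since the counts sum all exons, whether or not deleted, they say nothing for or against the genotype labels. Nfe2l2 stood at 462 ± 53.8 CPM in KO-labelled and 412 ± 43.9 CPM in Het females (edgeR adjusted p = 0.607), and at 470 ± 9.03 and 422 ± 29.7 CPM in KO-labelled and Het males (edgeR adjusted p = 0.672). The summed level of 14 satellite cell markers was 9755 to 12544 CPM in KO-labelled and 14142 to 15196 CPM in Het females, with 2 of the 14 (Cd34 and Spry1) called lower, and 19970 to 21251 CPM in KO-labelled and 18424 to 21594 CPM in Het males, with 0 called. The largest fall in CPM in females was that of Sdc4, at 4855 ± 903 CPM in KO-labelled and 7230 ± 822 CPM in Het animals (edgeR adjusted p = 0.122). Des, Itga7 and Cdh15 had higher means in KO-labelled than in Het females, and the other markers had lower ones. Pax7, which defines the cell type, was detected in all 4 groups. It stood at 12.5 ± 0.436 CPM in KO-labelled and 12.9 ± 2.38 CPM in Het females, and at 16.2 ± 6.00 and 22.2 ± 6.49 CPM in KO-labelled and Het males. The summed level of 15 leukocyte markers was 42.9 to 63.6 CPM in KO-labelled and 97.0 to 138 CPM in Het females, with 2 of 14 tested (Cd74 and Lyz2) called lower, and 64.3 to 79.9 CPM in KO-labelled and 31.0 to 108 CPM in Het males, with 0 called. That of 8 glial markers was 36.9 to 42.8 CPM in KO-labelled and 55.4 to 80.9 CPM in Het females, with 1 of 6 tested (Ptprz1) called lower, and 56.7 to 71.0 CPM in KO-labelled and 71.7 to 86.6 CPM in Het males, with 0 called. The marker genes in brackets and Sdc4 were chosen after their values were seen. No satellite cell, leukocyte or glial marker was at 0 in a whole group, and their part in the changes below was not tested. In bulk samples of this kind, fewer cells of a type and less RNA per cell cannot be told apart. Females and males were counted in separate tables, so sex and any difference between the tables cannot be told apart either.

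Promoters are shown for the 3 genes called in both sexes, Nqo1, Cbr3 and Akr1c14, and for Cbr1, which neighbours Cbr3 on chromosome 16 and was not called. Each is the stretch of 250 bases before a transcription start in RefSeq (GRCm38.p6), printed 5′ to 3′ on the strand of the gene. Capitals mark matches, on either strand, to the GC box GGGCGG, the CCAAT box CCAAT and the TATA box TATAAA. The Nqo1 window is chr8:107403206-107403455 on the minus strand. Cbr3 is shown from chr16:93682969-93683218, Akr1c14 from chr13:4059341-4059590 and Cbr1 from chr16:93607587-93607836, all on the plus strand. The RefSeq starts of Akr1c14 and Cbr1 lie inside the longer gene models used for counting.
Nqo1: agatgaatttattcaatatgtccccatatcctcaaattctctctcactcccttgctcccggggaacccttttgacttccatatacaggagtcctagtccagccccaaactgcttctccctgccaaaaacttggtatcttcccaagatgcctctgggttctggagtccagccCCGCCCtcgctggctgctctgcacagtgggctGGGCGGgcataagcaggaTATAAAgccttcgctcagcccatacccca
Cbr3: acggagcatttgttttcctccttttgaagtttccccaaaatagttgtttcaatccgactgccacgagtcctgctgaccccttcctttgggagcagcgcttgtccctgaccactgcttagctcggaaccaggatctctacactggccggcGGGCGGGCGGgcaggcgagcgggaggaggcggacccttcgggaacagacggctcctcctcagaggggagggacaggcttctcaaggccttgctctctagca
Akr1c14: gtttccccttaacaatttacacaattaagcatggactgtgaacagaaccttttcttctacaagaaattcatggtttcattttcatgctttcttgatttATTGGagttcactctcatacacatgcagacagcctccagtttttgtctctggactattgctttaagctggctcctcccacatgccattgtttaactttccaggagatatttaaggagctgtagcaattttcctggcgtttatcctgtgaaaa
Cbr1: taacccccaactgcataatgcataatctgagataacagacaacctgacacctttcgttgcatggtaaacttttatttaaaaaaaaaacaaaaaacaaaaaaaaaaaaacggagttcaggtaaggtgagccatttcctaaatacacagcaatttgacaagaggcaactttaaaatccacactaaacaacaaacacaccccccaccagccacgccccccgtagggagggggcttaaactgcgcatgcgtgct

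In this window Nqo1 holds a TATA box whose first base lies at -29 from the start, a GC box at -47 and another on the opposite strand at -79. Cbr3 holds a pair of overlapping GC boxes at -101 and -97, and Akr1c14 a CCAAT box on the opposite strand at -152. The Cbr1 window holds none of the 3 motifs. A GC box was found in 4 of the 9 promoters of the group (8 genes had an entry, and Nqo2 has 2 starts) and in 32.7% of all 32851 promoters of the same length. The core of the antioxidant response element, the sequence that NRF2 binds with small MAF proteins, was searched as TGACNNNGC on both strands. It occurred in 0 of the 9 windows and in 10.2% of all promoters. The relaxed form TGANNNNGC, which contains the core, occurred in 1 of the 9, that of Akr1c13, and in 35.2% of all. The AP-1 site TGANTCA, whose letters can overlap those of the relaxed form, occurred in 0 of the 9 and in 6.75% of all. These counts say only which letters stand in the 250 bases before the start, and elements farther away were not searched. The windows differ in base composition, at 53.2% G and C for Nqo1, 59.6% for Cbr3, 38.8% for Akr1c14 and 41.6% for Cbr1, beside a median of 52.4% over all promoters.

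Of the 9 genes, 3 were higher in KO-labelled females and 0 were lower, and the same was true in males, with Nqo1, Akr1c14 and Cbr3 the 3 in each sex. Counts of 8 of the 9 were high enough to test, and Akr1c13 fell below the filter on low counts. Over all genes tested, 2.27% of 14036 were called in females (1.29% higher and 0.983% lower) and 0.861% of 13361 in males (0.704% higher and 0.157% lower), at an edgeR adjusted p under 0.05. The median log2 fold change of the 8 tested genes was 0.60 in females and 0.34 in males, beside 0.00 and 0.01 over all genes tested. The KO-labelled libraries all lay above the Het libraries for 6 of the 8 in females and below for 0, beside 12.1% and 10.1% of all genes (22.3% in either direction). In males they lay above for 3 of the 8, beside 9.37% of all genes, and below for 1, Akr1b3, beside 7.80% (17.2% in either direction).

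**Figure D1:**
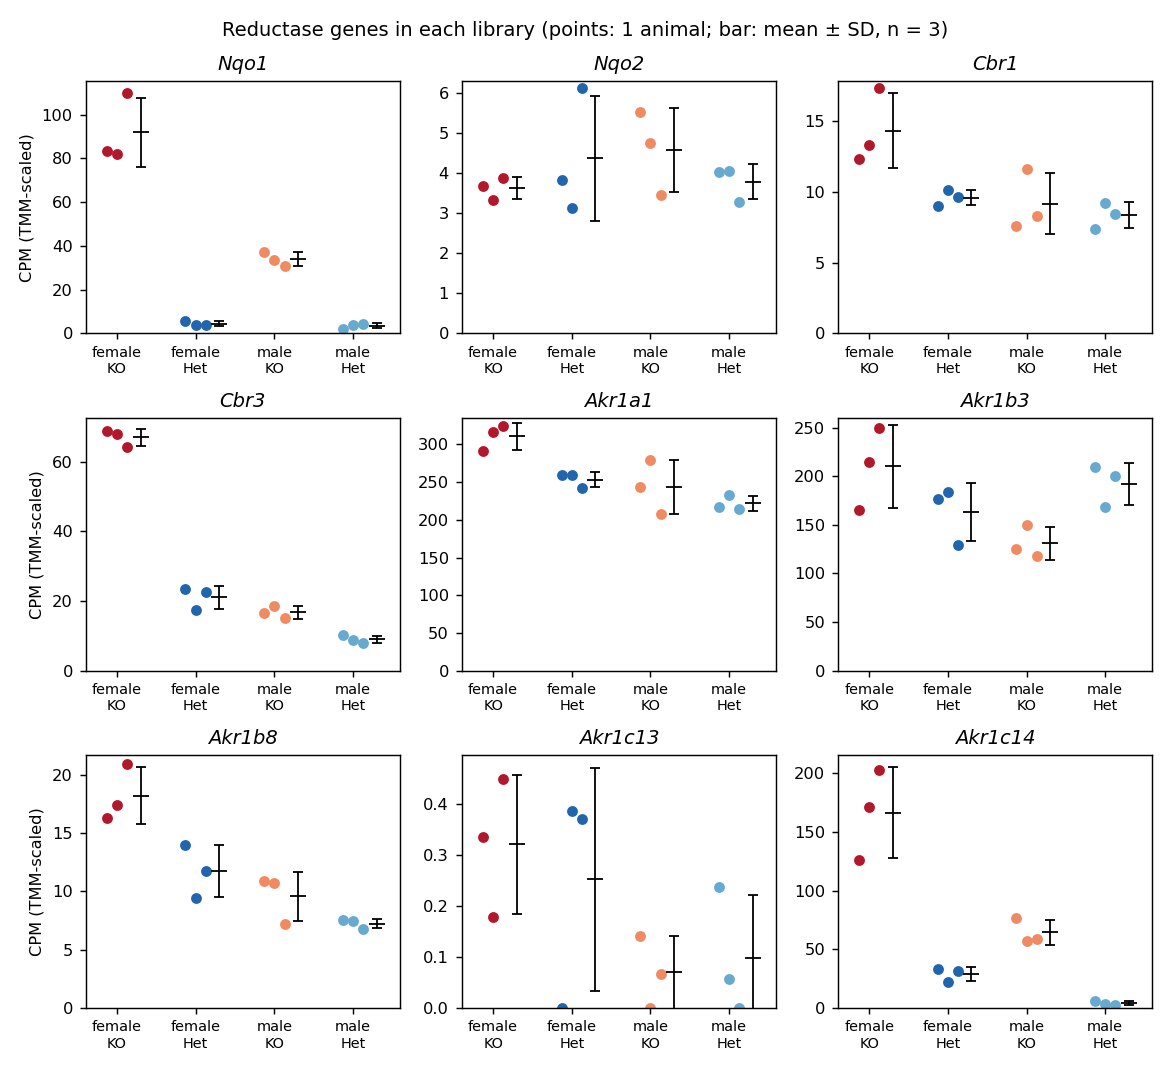
Level of each reductase gene in every library, in CPM on linear axes that start at 0, with KO-labelled left of Het libraries in each sex, 1 point per animal and bars for mean ± SD (n = 3). For Nqo1, Cbr3 and Akr1c14 the KO-labelled points lie above the Het points in both sexes, and the female KO-labelled points are the highest for each of these 3 genes.

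Nqo1 (ENSMUSG00000003849, GRCm38 chromosome 8, 107388225 to 107403206, minus strand) encodes the main cytosolic quinone reductase. It stood at 83.6, 82.2 and 110 CPM in KO-labelled females (KO166, KO178 and KO188 in the labels), against 5.71, 3.82 and 3.65 CPM in Het females (Hetz164, Hetz165 and Hetz181). All later values keep this order of animals. The groups lay far apart, with the lowest KO-labelled library at 82.2 CPM and the highest Het library at 5.71 CPM. Means were 91.8 ± 15.4 CPM in KO-labelled and 4.40 ± 1.14 CPM in Het females, a log2 fold change of 4.38 ± 0.210 (SE), 20.8-fold (edgeR adjusted p = 2.58e-07). In males the levels were 37.2, 33.5 and 31.0 CPM in KO-labelled animals (KO240, KO247 and KO255), against 2.14, 3.88 and 4.37 CPM in Het animals (Hetz204, Hetz245 and Hetz249). The male groups did not overlap either, and all 3 KO-labelled males were below all 3 KO-labelled females. Male means were 33.9 ± 3.10 CPM in KO-labelled and 3.46 ± 1.18 CPM in Het animals, a log2 fold change of 3.27 ± 0.232, 9.63-fold (edgeR adjusted p = 1.15e-05). By p-value Nqo1 ranked second among all genes tested in each sex. No stretch of 50 bases in its transcripts was shared with another gene, and no exonic base overlaps another gene model.

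Nqo2 (ENSMUSG00000046949, chromosome 13, 33964687 to 33988443) encodes a related quinone reductase that uses dihydronicotinamide riboside in place of NADH or NADPH. It was low throughout, at 3.69, 3.33 and 3.88 CPM in KO-labelled and 3.84, 3.14 and 6.14 CPM in Het females, and at 5.53, 4.76 and 3.46 CPM in KO-labelled and 4.04, 4.05 and 3.29 CPM in Het males. The groups overlapped in both sexes. The log2 fold change was -0.27 in females, with a 95% interval of -0.90 to 0.36 (edgeR adjusted p = 0.675), and 0.28 in males, with an interval of -0.30 to 0.85 (edgeR adjusted p = 0.744). A change as large as that of Nqo1 lies outside both intervals. Without Hetz181 the female value was 0.05. Of the exonic bases of Nqo2, 18.9% overlap Serpinb6a on the opposite strand, and reads there were counted for neither gene.

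Cbr3 and Cbr1 encode carbonyl reductases that are close relatives and lie side by side on the plus strand of chromosome 16, Cbr1 (ENSMUSG00000051483) from 93605853 to 93610505 and Cbr3 (ENSMUSG00000022947) from 93683215 to 93690990. Cbr3 stood at 69.0, 67.9 and 64.4 CPM in KO-labelled females, against 23.5, 17.3 and 22.5 CPM in Het females. The KO-labelled females were tightly grouped and lay well above the Het females. Means were 67.1 ± 2.40 CPM in KO-labelled and 21.1 ± 3.34 CPM in Het females, a log2 fold change of 1.67 ± 0.153, 3.17-fold (edgeR adjusted p = 5.37e-05). In males Cbr3 stood at 16.7, 18.7 and 15.0 CPM in KO-labelled animals, against 10.1, 8.89 and 7.89 CPM in Het animals. The male groups did not overlap, but the gap between them was narrower than in females, and every male library was below every KO-labelled female library and all but 1 were below every Het female library. The male log2 fold change was 0.91 ± 0.184, 1.87-fold (edgeR adjusted p = 0.0381). That male call was lost when Hetz204, Hetz245, Hetz249, KO240 or KO247 was left out, with edgeR adjusted p from 0.0585 to 0.245 and log2 fold changes of 0.81 to 0.99.

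Cbr1, the enzyme best known for reducing prostaglandins, menadione and anthracycline drugs, passed in neither sex. It stood at 12.3, 13.3 and 17.3 CPM in KO-labelled females, against 9.02, 10.1 and 9.64 CPM in Het females. The female groups did not overlap, but the log2 fold change of 0.57 ± 0.193 did not pass (95% interval 0.15 to 0.99, edgeR adjusted p = 0.153). Levels in males were 7.59, 11.6 and 8.31 CPM in KO-labelled and 7.36, 9.23 and 8.46 CPM in Het animals, groups that overlapped, with a log2 fold change of 0.13 (95% interval -0.34 to 0.60, edgeR adjusted p = 0.87). Without KO247, which had the highest level, the male value was -0.06. None of the other genes tested within 200 kb of Cbr3 (Chaf1b, Dop1b, Setd4 and Morc3) was called in either sex.

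The aldo-keto reductase genes fell into 3 places in the genome, Akr1a1 on chromosome 4, Akr1b3 and Akr1b8 side by side on chromosome 6, and Akr1c13 and Akr1c14 in a cluster of related genes on chromosome 13. Akr1c14 (ENSMUSG00000033715, 4049011 to 4090688) encodes a 3-alpha-hydroxysteroid dehydrogenase, which reduces steroid ketones and also acts on xenobiotics. It stood at 126, 171 and 203 CPM in KO-labelled females, against 33.0, 21.8 and 31.3 CPM in Het females. The groups did not overlap, and the KO-labelled females spread more widely than for Cbr3. Means were 167 ± 38.7 CPM in KO-labelled and 28.7 ± 6.04 CPM in Het females, a log2 fold change of 2.54 ± 0.204, 5.81-fold (edgeR adjusted p = 1.96e-05). Male levels were 76.7, 57.2 and 59.1 CPM in KO-labelled animals, against 5.78, 3.49 and 2.33 CPM in Het animals. The Het males were the lowest of the 4 groups, and the KO-labelled males lay between the Het and the KO-labelled females. Male means were 64.3 ± 10.7 CPM in KO-labelled and 3.86 ± 1.75 CPM in Het animals, a log2 fold change of 4.09 ± 0.273, 17-fold (edgeR adjusted p = 1.15e-05). Of the exonic bases of Akr1c14, 7.22% overlap the pseudogene model Gm18857 on the same strand.

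Akr1c13 (ENSMUSG00000021213, 4191150 to 4205596) had at most 8 counts in any library and exceeded the floor of 3 counts in 4 of 12 libraries. Means were 0.321 ± 0.136 CPM in KO-labelled and 0.253 ± 0.219 CPM in Het females, and 0.0695 ± 0.0710 and 0.0979 ± 0.124 CPM in KO-labelled and Het males, levels at or near the floor of 0.144 to 0.237 CPM per library, so no fold change is given. Of its stretches of 50 bases, 24.2% also occur in Akr1c12, and reads that map to both were not counted. The other Akr1c genes on chromosome 13 also had few or no counts. Akr1c18 had 16 counts over the 12 libraries together, Akr1c12, Akr1c19 and Akr1c21 had 2 each, Akr1c20 had 1 and Akr1c6 had 0. Per length, the highest group mean was 0.0813 FPKM for Akr1c18 and 51.6 FPKM for Akr1c14, where FPKM is the CPM divided by the exonic length in kilobases. Akr1e1, an aldo-keto reductase gene beside Akr1c21 (chromosome 13, 4590750 to 4609174), was detected in all 12 libraries, at 9.49 ± 2.37 CPM in KO-labelled and 9.12 ± 2.42 CPM in Het females, and 10 ± 0.151 CPM in KO-labelled and 7.46 ± 0.591 CPM in Het males. It passed in neither sex (edgeR adjusted p = 0.924 in females and 0.393 in males).

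Akr1a1 (ENSMUSG00000028692, chromosome 4, 116636510 to 116651680) encodes aldehyde reductase, which in mice also serves the synthesis of ascorbate. It stood at 291, 317 and 325 CPM in KO-labelled females, against 259, 259 and 242 CPM in Het females, and at 243, 279 and 208 CPM in KO-labelled males, against 217, 233 and 215 CPM in Het males. The female groups did not overlap and the male groups did. The log2 fold change of 0.29 in females (95% interval 0.01 to 0.57) and of 0.14 in males (-0.15 to 0.42) did not pass (edgeR adjusted p = 0.265 and 0.738).

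Akr1b3 (ENSMUSG00000001642, chromosome 6, 34302434 to 34317478) encodes aldose reductase, which turns glucose into sorbitol and also reduces lipid aldehydes. It stood at 164.6, 214.9 and 250.2 CPM in KO-labelled and 176.4, 184.4 and 128.7 CPM in Het females, groups that overlapped. The male levels were 125, 150 and 118 CPM in KO-labelled animals, against 209, 168 and 200 CPM in Het animals. It was the gene of the 8 whose KO-labelled males all lay below the Het males. The log2 fold change was 0.36 ± 0.183 in females (edgeR adjusted p = 0.326) and -0.55 ± 0.137 in males, with a 95% interval of -0.85 to -0.26 (edgeR adjusted p = 0.0991). The male value passed with DESeq2 (adjusted p = 0.0225), with no filter on low counts (edgeR adjusted p = 0.0152) and without KO247 (edgeR adjusted p = 0.036). Of its stretches of 50 bases, 13.6% also occur in other gene models, mostly pseudogenes, so its level is less certain than that of Nqo1 or Cbr3.

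Akr1b8 (ENSMUSG00000029762, chromosome 6, 34354119 to 34368463) encodes an aldose reductase-like enzyme. It stood at 16.3, 17.4 and 21 CPM in KO-labelled females, against 14, 9.48 and 11.8 CPM in Het females, groups that did not overlap. Male levels were 10.9, 10.7 and 7.18 CPM in KO-labelled and 7.52, 7.43 and 6.76 CPM in Het animals, where KO255 fell among the Het animals. The log2 fold change was 0.63 ± 0.193 in females (edgeR adjusted p = 0.121) and 0.40 ± 0.218 in males (edgeR adjusted p = 0.502). Averaged over both sexes in the fit of 12 libraries it was 0.52 ± 0.144, with an edgeR adjusted p of 0.0573 and a DESeq2 adjusted p of 0.0169, and leaving out Hetz164 or KO255 gave edgeR adjusted p of 0.0469 and 0.0201. In that averaged comparison 3 of the 8 genes were called higher with edgeR, and 0 lower, beside 2.15% and 1.27% of 14772 genes (3.41% in either direction), and they were again Nqo1, Cbr3 and Akr1c14.

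**Figure D2:**
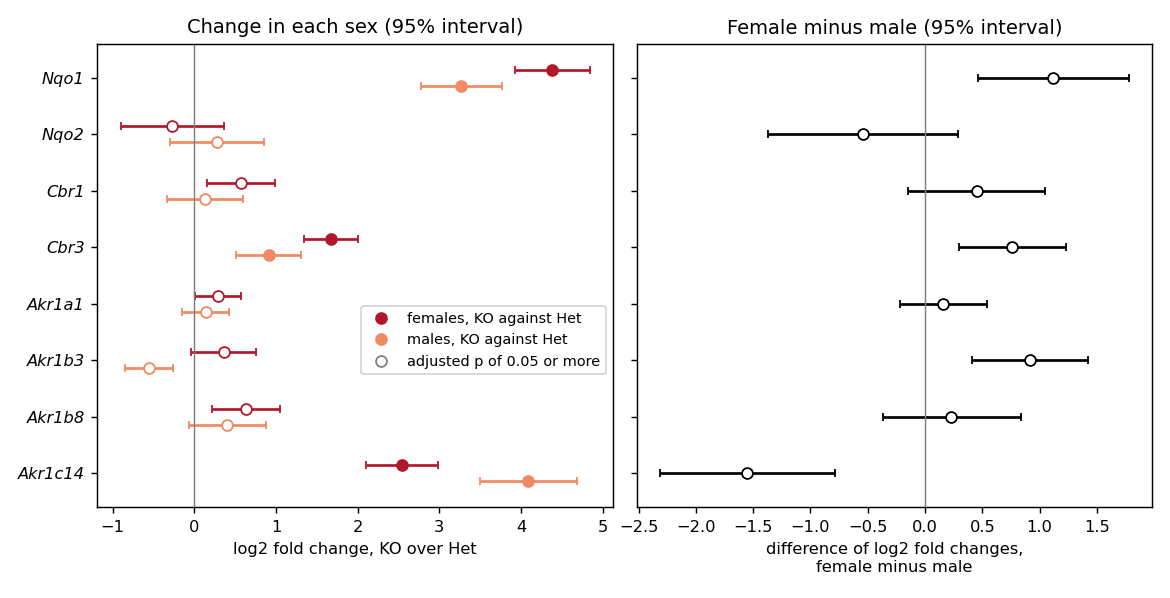
Log2 fold change of KO-labelled over Het animals for the 8 tested genes in each sex (left) and the female minus the male change (right), with bars giving 95% intervals. Filled points passed an adjusted p of 0.05, namely Nqo1, Cbr3 and Akr1c14 in both sexes, and in the right panel the intervals of Nqo1, Cbr3, Akr1b3 and Akr1c14 do not include 0.

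Levels of different genes were compared per length, as FPKM. The length counts every annotated exon, used or not, so a gene with a long model gets a low FPKM. Akr1b3 has 8384 exonic bases and Cbr3 has 1254. As CPM, Akr1b3 stood at 163 ± 30.1 and Cbr3 at 21.1 ± 3.34 in Het females. The ranks and shares below depend on these lengths, and which exons were used was not tested. Akr1a1 had the highest FPKM of the 9 genes in every group, at 113 ± 6.57 in KO-labelled and 92.2 ± 3.63 in Het females, and 88.5 ± 13 in KO-labelled and 80.6 ± 3.53 in Het males. Nqo1 ranked second of the 9 in KO-labelled animals of both sexes, at 59.1 ± 9.91 FPKM in females and 21.8 ± 2.0 FPKM in males. In Het animals it ranked seventh in females at 2.83 ± 0.736 FPKM and sixth in males at 2.23 ± 0.757 FPKM, where Akr1c14 came next at 1.19 ± 0.542 FPKM. In KO-labelled females Nqo1, Cbr3 (53.5 ± 1.92 FPKM) and Akr1c14 (51.6 ± 12 FPKM) did not differ beyond their SD, and in KO-labelled males neither did Nqo1 and Akr1c14 (19.9 ± 3.31 FPKM). The summed FPKM of the 9 genes was 321 in KO-labelled and 153 in Het females, and 170 in KO-labelled and 123 in Het males. Of that sum Akr1a1 held 35.2% in KO-labelled and 60.2% in Het females, and 52.0% in KO-labelled and 65.4% in Het males. Nqo1 held 18.4% in KO-labelled and 1.85% in Het females, and 12.8% in KO-labelled and 1.81% in Het males. Akr1b3 stood at 22.9 ± 2.61 FPKM in Het males, above Cbr3 at 7.15 ± 0.893 FPKM, while in Het females Akr1b3 (19.5 ± 3.59 FPKM) and Cbr3 (16.8 ± 2.66 FPKM) did not differ beyond their SD. Akr1c13 had the lowest mean FPKM in all 4 groups and Nqo2 the next lowest, but in Het males Nqo2 (0.939 ± 0.107 FPKM) and Akr1c14 (1.19 ± 0.542 FPKM) did not differ beyond their SD.

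**Figure D3:**
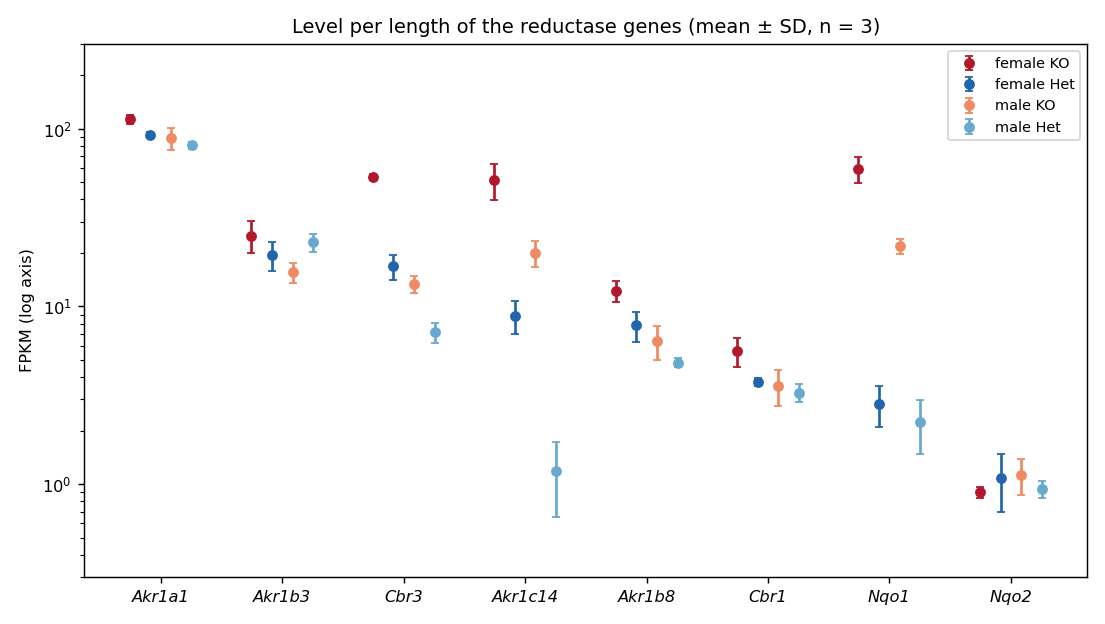
Level per length (FPKM, log axis) of 8 of the reductase genes in the 4 groups, as mean ± SD over 3 animals, with genes ordered by their level in Het females and Akr1c13 (0.0484 to 0.224 FPKM) left out. Akr1a1 is the highest in each group, and Nqo1 is at 59.1 FPKM in KO-labelled and 2.83 FPKM in Het females.

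The size of the change was set against sex as the female minus the male log2 fold change, in a fit of all 12 libraries. With edgeR 0 of the 8 genes passed, beside 0.00677% of 14772 genes (1 gene). At an unadjusted p under 0.05 there were 4 (3 larger and 1 smaller in females), beside 12.4% of all genes (5.99% larger and 6.39% smaller). DESeq2 called the same 4, Nqo1, Cbr3, Akr1b3 and Akr1c14, beside 238 of all 14772 genes, or 1.61%. It gave no adjusted p for some of the 14772, among them 1 of the 8 genes. The share among genes it could call is therefore larger than 1.61%. For Nqo1 the difference was 1.12 with a 95% interval of 0.46 to 1.78 (edgeR adjusted p = 0.174, DESeq2 adjusted p = 0.0298). For Cbr3 it was 0.76, with an interval of 0.30 to 1.23 (edgeR adjusted p = 0.196, DESeq2 adjusted p = 0.0495). Akr1b3 differed by 0.92, with an interval of 0.41 to 1.42 (edgeR adjusted p = 0.169, DESeq2 adjusted p = 0.0298). Akr1c14 ran the other way, at -1.55 with an interval of -2.31 to -0.79 (edgeR adjusted p = 0.122, DESeq2 adjusted p = 0.00342). Leaving out Hetz165 let Akr1b3 and Akr1c14 pass with edgeR (adjusted p = 0.0498 and 0.0333). The remaining 4 had intervals that included 0, namely Nqo2 (-1.37 to 0.29), Cbr1 (-0.15 to 1.05), Akr1a1 (-0.22 to 0.54) and Akr1b8 (-0.37 to 0.84).

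The levels of the 8 genes in the sexes are set side by side here within each genotype. All 3 KO-labelled females lay above all 3 KO-labelled males for 7 of the 8 genes, every one but Nqo2, and below for 0, beside 19.4% and 18.6% of all genes (38.0% in either direction). All 3 Het females lay above all 3 Het males for 4 of the 8, Cbr3, Akr1a1, Akr1b8 and Akr1c14, and below for 0, beside 13.7% and 15.4% of all genes (29.1% in either direction). For Akr1c14 the KO-labelled groups stood at 167 ± 38.7 CPM in females and 64.3 ± 10.7 CPM in males, and the Het groups at 28.7 ± 6.04 CPM in females and 3.86 ± 1.75 CPM in males. For Nqo1 the Het groups overlapped between the sexes, at 4.40 ± 1.14 CPM in females and 3.46 ± 1.18 CPM in males. These differences between the sexes were not tested, since each sex was counted in its own table. Markers of other cell types also differed between the sexes. The summed level of 12 endothelial markers was 67 to 111 CPM in KO-labelled females and 170 to 450 CPM in KO-labelled males, and 85.6 to 87.3 CPM in Het females and 271 to 283 CPM in Het males. That of 12 fibro-adipogenic markers was 2893 to 3313 CPM in KO-labelled females and 1224 to 1784 CPM in KO-labelled males, and 2559 to 4966 CPM in Het females and 1033 to 2391 CPM in Het males. The female sums lay below the male sums for the first list and above them for the second, in both genotypes. The largest part of the second sum was Col3a1, at 2114 ± 952 CPM in Het females and 905 ± 601 CPM in Het males. Within each genotype Col3a1, Col1a1, Col1a2, Dcn, Lum and Pdgfra had higher means in females. Dpt, Ly6a, Mfap5, Pi16, Cd248 and Clec3b had lower ones. For 10 myofibre markers the sums were 100 to 565 CPM in KO-labelled females and 31.7 to 116 CPM in KO-labelled males, and 101 to 311 CPM in Het females and 33.5 to 46.2 CPM in Het males, with 1 marker at 0 in each male group. For 5 erythrocyte markers they were 8.29 to 10.5 CPM in KO-labelled females and 16.9 to 78.9 CPM in KO-labelled males, and 5.90 to 16.9 CPM in Het females and 29.1 to 44.6 CPM in Het males. For 9 pericyte and smooth muscle markers they were 572 to 626 CPM in KO-labelled females and 380 to 475 CPM in KO-labelled males, and 387 to 653 CPM in Het females and 325 to 461 CPM in Het males. The pericyte and smooth muscle sum mainly followed Acta2, at 393 ± 38.5 CPM in KO-labelled females and 134 ± 23.6 CPM in KO-labelled males. Mean levels of Tagln, Pdgfrb and Cspg4 were also higher in KO-labelled females, and those of Rgs5, Myh11, Abcc9, Kcnj8 and Notch3 were lower. The sums of the myofibre, erythrocyte, and pericyte and smooth muscle lists separated the sexes in at least 1 genotype. Glial and leukocyte sums, given above, were lower in KO-labelled females than in KO-labelled males, and overlapped between Het females and Het males. For leukocytes the gap was narrow, with KO-labelled females up to 63.6 CPM and KO-labelled males from 64.3 CPM. The satellite cell sums given above were lower in females in both genotypes. The part of these markers in the levels of the reductase genes was not tested.

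**Figure D4:**
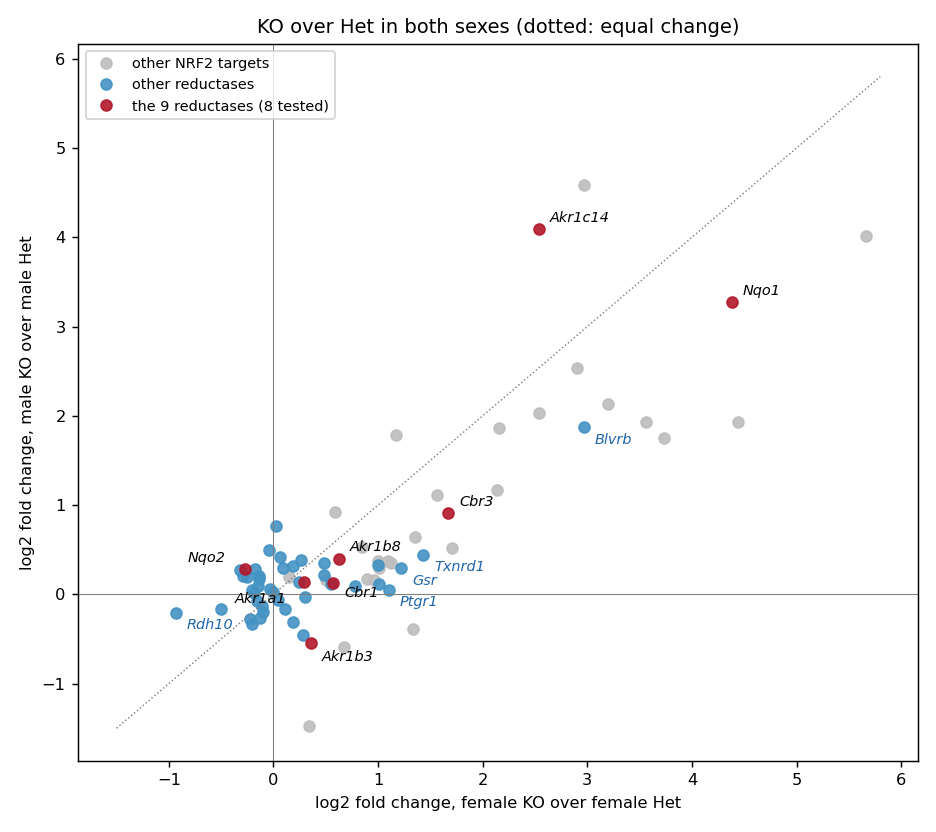
Log2 fold change of KO-labelled over Het animals in females (x axis) and in males (y axis) for the 8 tested reductase genes, 41 other reductase genes and 27 other NRF2 target genes. Nqo1 lies at 4.38 and 3.27 and Cbr3 at 1.67 and 0.91, below the diagonal, while Akr1c14 lies above it at 2.54 and 4.09.

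Other reductase genes mostly did not pass. Of 6 other aldo-keto reductase genes tested in females 0 were called with edgeR and 0 with DESeq2, and 1 was higher at an unadjusted p under 0.05. In males the counts were 0 of 5 with edgeR, 0 with DESeq2 and 1 unadjusted. They include Akr1b10, next to Akr1b8, with log2 fold changes of 0.24 and 0.14 in females and males. Of 20 other carbonyl reductase and related genes, 2 were called in females and 0 in males, with edgeR and with DESeq2. At an unadjusted p under 0.05, 4 were higher and 1 lower in females, and 1 was higher and 0 lower in males. The share of all genes at that threshold is not given for each sex, but ranks by p-value bound it. In females Akr1a1, at an edgeR unadjusted p of 0.0431, ranked 2277 of 14036 genes, so at least 2277 reached the threshold. In males Akr1b8, at an edgeR unadjusted p of 0.0871 and so above the threshold, ranked 2319 of 13361. Fewer than 2319 genes therefore reached it in males. Ptgr1, which reduces leukotrienes, prostaglandins and reactive alkenals, stood at 18.2 ± 3.90 CPM in KO-labelled and 8.42 ± 0.874 CPM in Het females, 2.15-fold higher (edgeR adjusted p = 0.0119). That call was lost without Hetz164, KO166 or KO188 (edgeR adjusted p = 0.07, 0.0596 and 0.0931), and in males Ptgr1 stood at 7.63 ± 0.534 and 7.42 ± 1.40 CPM in KO-labelled and Het animals. Rdh10, a retinol dehydrogenase, fell to 45.3 ± 4.73 CPM in KO-labelled females, against 86.3 ± 11.3 CPM in Het females, 0.523 times as high (edgeR adjusted p = 0.00495). The median log2 fold change of that list was -0.07 in females and 0.10 in males.

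Of 16 other quinone and flavin reductase genes, 3 rose in KO-labelled females and 1 in KO-labelled males, with medians of 0.07 and 0.15. Blvrb, the flavin and biliverdin reductase, rose in both sexes, to 145 ± 26.7 CPM in KO-labelled females, against 18.4 ± 1.56 CPM in Het females (7.85-fold, edgeR adjusted p = 6.85e-07). Its male level rose to 101 ± 9.64 CPM in KO-labelled animals, against 27.6 ± 1.12 CPM in Het animals (3.66-fold, edgeR adjusted p = 1.15e-05). Txnrd1, thioredoxin reductase, rose to 3057 ± 537 CPM in KO-labelled females, against 1132 ± 259 CPM in Het females (2.69-fold, edgeR adjusted p = 0.00152). Males had 2214 ± 469 CPM in KO-labelled and 1632 ± 464 CPM in Het animals (edgeR adjusted p = 0.401). Gsr, glutathione reductase, rose to 66.1 ± 7.76 CPM in KO-labelled females, against 28.3 ± 9.46 CPM in Het females (2.34-fold, edgeR adjusted p = 0.00769), a call lost without KO166 (edgeR adjusted p = 0.0515). Males had 25.5 ± 8.53 CPM in KO-labelled and 20.9 ± 6.4 CPM in Het animals (edgeR adjusted p = 0.709). Among 31 NRF2 target genes outside these families, 26 rose and 0 fell in KO-labelled females, with a median log2 fold change of 1.56. In KO-labelled males 14 of 27 rose and 0 fell, with a median of 0.64, and without Hetz249 the count was 9. These targets were picked as known NRF2 targets with results of these libraries in view, so their direction is no independent evidence. Of 10 regulators of the pathway, 1 was called in females and 0 in males with edgeR (DESeq2 called 2 and 0). At an unadjusted p under 0.05 there were 3 in females, all higher, and 0 in males, beside the bounds over all genes given above. The 1 was Bach1, the repressor that competes with NRF2, named after its values were seen, at 59.9 ± 3.32 CPM in KO-labelled and 36.8 ± 6.94 CPM in Het females (1.62-fold, edgeR adjusted p = 0.0425). It was lost in the fit of 12 libraries (edgeR adjusted p = 0.0983) and on leaving out any female but Hetz165 (edgeR adjusted p = 0.088 to 0.157).

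The genes whose pattern over the 12 libraries was most like that of each called gene were ranked by the root mean square difference of log2 CPM, each gene centred on its own mean, among 13054 genes tested in both tables. For Nqo1 they included Pla2g7 (0.46), Adh7 (0.72), Slc48a1 (0.74) and Gm14964 (0.75), beside a median of 2.03 over all genes. For Akr1c14 they included Ces2c (0.61), Adam23 (0.72), Slc7a11 (0.76) and Pla2g7 (0.77), beside a median of 2.07. Pla2g7 thus stood in both lists. For Cbr3 they were Slc22a23 (0.33), Areg (0.34), Trdc (0.39), Trip13 (0.39) and Ereg (0.39), beside a median of 1.10. None of the 5 genes nearest in pattern to Cbr3 stood among those nearest to Nqo1 or Akr1c14. Values were centred but not scaled, so the distance also depends on how large the changes are. Cbr3 changed less than Nqo1 and Akr1c14 in both sexes, so this lack of overlap cannot tell a different pattern from a smaller change. Slc22a23 lies within 200 kb of Nqo2 on chromosome 13 and was called higher in females.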

How the data were processed

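RNA of 12 libraries, 1 animal each, was amplified by Smart-Seq2 without molecular identifiers and cut with Tn5, per the labels' protocols, so floors cover counting error only. The deposited values are raw counts per Ensembl gene, made without regard to strand by featureCounts 2.0.0 on Ensembl GRCm38 release 99, per the file headers. Reads that mapped to several places or overlapped several genes were not counted, per the file headers. Per the submitters' processing notes STAR, Subread, DESeq2 and mm10 were also used, in versions not given in the sources used here. FPKM was computed from CPM and the exonic length in the deposited tables. Symbols came from GENCODE mouse release 21 and covered 55144 of 55385 genes.

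Each sex was fitted by itself with edgeR 4.0.16 in R 4.3.3: TMM, filterByExpr with a minimum count of 10, robust glmQLFit and glmQLFTest, Benjamini-Hochberg over all genes tested, threshold 0.05. A fit of all 12 libraries with 4 group means gave the female minus male change and the average. SE is the log2 fold change over the square root of F, and intervals are 95%. Within a group, pairs of libraries differed by more than counting noise (12.4 to 65.2 chi-square units per degree of freedom). Xist and 4 Y-linked genes matched the sex labels in all 12. Labels put each sample in its group, and animal numbers are unique, so nothing pairs samples.

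Alternatives were DESeq2 1.42.0, its size factors in edgeR, no filter, the 12-library fit within sex, no TMM factor for levels, and leaving out each animal. The scripts were tested on simulated counts. Every one of the 9 genes is reported; of the lists of other reductases, genes called in either sex are named, and the 5 nearest genes in pattern for each gene called in both sexes, apart from 1 gene that is not reported here. Members and lists were chosen with earlier results of these data known.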

Additional observations from a re-analysis of the deposited data

How the results depend on the processing

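Nqo1, Akr1c14 and, in females, Cbr3 were called under all 10 alternatives of the fit within their sex, and all 3 under all 15 of the averaged fit. The log2 fold change of Nqo1 ranged from 4.23 to 4.61 in females and from 3.03 to 3.45 in males, and that of Akr1c14 from 2.36 to 2.71 and from 3.81 to 4.46. Cbr3 was called in males under 5 of 10. With animals left out, the number of the 9 genes called stayed at 3 in females and ran from 2 to 3 in males, from 3 to 4 in the average and from 0 to 2 for the female minus male difference, which DESeq2 raised to 4 and no filter to 3. Small log2 fold changes changed sign with an animal left out for Nqo2 in females (-0.45 to 0.05, positive without Hetz181), Cbr1 in males (-0.06 to 0.23, negative without KO247) and Keap1 in males (-0.30 to 0.12, positive without Hetz204).

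Among the lists, leaving out animals gave 0 to 1 other aldo-keto reductase genes called in females, 1 to 2 other carbonyl reductase genes in females and 0 to 1 in males, 1 to 2 other quinone and flavin reductase genes in males (2 with no filter), 9 to 15 NRF2 targets in males, and 0 to 1 pathway regulators in females (2 with DESeq2, 0 in the fit of 12 libraries). Over all genes the calls numbered 319 in females (723 with DESeq2, 1000 with no filter, 144 to 1479 with an animal left out, the highest without Hetz165), 115 in males (280, 375 and 41 to 294), 1 for the difference (238, 358 and 0 to 206) and 504 for the average (843, 858 and 318 to 931). Without a TMM factor the level of Cbr3 in KO-labelled females was 71.6 CPM and that of Akr1a1 was 331 CPM in KO-labelled females and 211 CPM in Het males, each beyond 1 SD of the reported mean. These shifts follow by arithmetic from the TMM factors. The factors were 1.12, 1.05 and 1.03 in KO-labelled females and 0.970, 0.971 and 0.923 in Het males. Why the factors differed between the groups was not tested.

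No paired analysis was possible because each animal number occurs in 1 group only. At this depth Akr1c13 was too low to compare.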
